A study of Homo sapiens with 6 samples.

Results

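Epithelial-mesenchymal state genes were examined in 8505C cells, an established human line of anaplastic thyroid cancer (ATC), after siRNA against NUF2, a subunit of the kinetochore complex that attaches chromosomes to the spindle. The genes were 10 names, ZEB1, ZEB2, SNAI1, SNAI2, TWIST1, CDH1, EPCAM, VIM, CDH2 and FN1, taken by name with no threshold on a measured value, and all 10 were found among the 32985 genes of the table. The design held 3 libraries of cells given control siRNA (siCtrl, genotype labelled WT) and 3 of cells given siRNA to NUF2 (siNUF2, genotype labelled NUF2 knockdown), all from the same parental line and all labelled 24 h. The study's methods give 1 siRNA sequence for NUF2, so the values belong to 1 cell line and 1 siRNA. Poly(A) RNA was sequenced, and each gene has a read count and an FPKM, the mapped fragments scaled by transcript length and by library depth, in every library.

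In epithelial-mesenchymal transition (EMT), epithelial cells lose the adhesion proteins that hold a sheet together and take on a motile form with a vimentin cytoskeleton, N-cadherin and a fibronectin matrix. The zinc finger factors of the ZEB and SNAI families and the bHLH factor TWIST1 drive the change, in part by repressing CDH1, which encodes E-cadherin, and the miR-200 family of microRNAs opposes it by pairing with the 3′ UTRs of ZEB1 and ZEB2. Anaplastic thyroid cancer is known for losing the follicular epithelial form of the gland it comes from.

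The miR-200 family is shown first because its match to ZEB1 and ZEB2 is the sequence feature that sets these 2 factors apart from the other 8 genes. The mature sequences from RefSeq (GRCh38.p14) fall into 2 groups by their seed, bases 2 to 8, which is in capitals. 
hsa-miR-200b-3p: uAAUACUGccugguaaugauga
hsa-miR-200c-3p: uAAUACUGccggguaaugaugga
hsa-miR-429: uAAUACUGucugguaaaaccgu
hsa-miR-200a-3p: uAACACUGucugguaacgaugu
hsa-miR-141-3p: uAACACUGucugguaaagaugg

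The DNA word that pairs with the first seed is CAGTATT and the word for the second is CAGTGTT. They were counted on the sense strand of the longest 3′ UTR annotated for each gene in GENCODE release 44. ZEB1, with a 3′ UTR of 2549 bases, held CAGTATT 6 times and CAGTGTT 3 times. ZEB2, with 5370 bases, held CAGTATT 5 times and CAGTGTT 4 times. FN1 held CAGTATT 2 times and SNAI2 1 time, and the other 6 genes held neither word. Among 10174 tested genes with a 3′ UTR, 20.4% held CAGTATT and 22.9% held CAGTGTT at least once, but 7 genes, or 0.0688%, held the 2 words 9 or more times in all, ZEB1 and ZEB2 among them. One site for each word in each gene is shown with its flanks, the word in capitals, in the sense direction of the transcript on GRCh38.
ZEB1 chr10:31527623-31527649, plus strand: tttatcttatCAGTATTatcactctta
ZEB1 chr10:31528787-31528813, plus strand: tttgatttaaCAGTGTTatgttaacat
ZEB2 chr2:144388980-144389006, minus strand: tacaatgcatCAGTATTatgattcctc
ZEB2 chr2:144388701-144388727, minus strand: catccttgtaCAGTGTTaagagggtaa

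**Figure D1:**
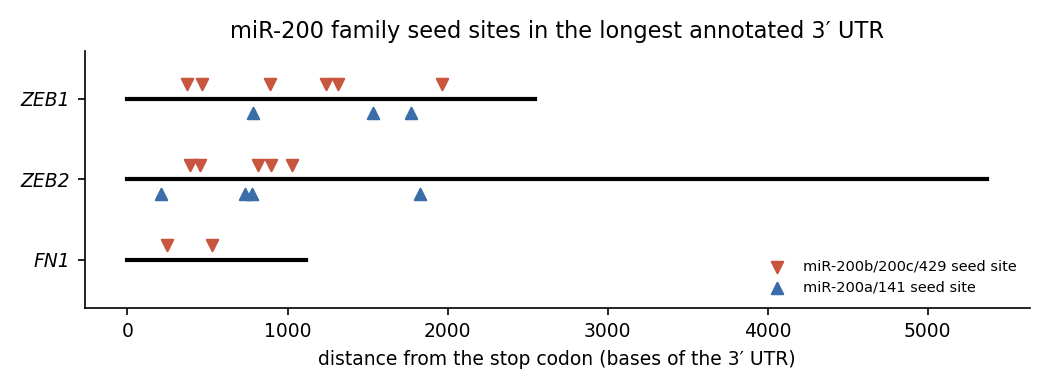
Positions of the 7-base words pairing with the miR-200 seeds along the longest annotated 3′ UTR of ZEB1, ZEB2 and FN1, in bases from the stop codon. ZEB1 carries 6 CAGTATT (down triangles) and 3 CAGTGTT words (up triangles), ZEB2 carries 5 and 4, and FN1 carries 2 and 0. SNAI2, with 1 word, is not drawn.

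Poly(A) libraries do not measure mature microRNAs. The host transcript of miR-200c and miR-141, MIR200CHG, had 3 counts in siCtrl 2 and 0 counts in each of the other 5 libraries. The same 3 counts stood on the overlapping MIR141 entry. At this depth the host transcript was therefore at or under the level of 3 counts in every library. The locus on chromosome 1 that holds miR-200a, miR-200b and miR-429 was not looked at. A link of the family to the levels of ZEB1 and ZEB2 was not tested.

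The library totals ran from 61257859 to 69755291 counts, with 5.46% to 7.06% of them on mitochondrial genes. NUF2 itself stood at 14.8, 14.5 and 12.2 FPKM in the siCtrl libraries and at 1.53, 2.05 and 1.56 FPKM in the siNUF2 libraries, a log2 fold change of −2.99 (SE 0.17, edgeR adjusted p = 5.1e-04) in the direction of the labels. Libraries with the same replicate number deviated together from their group means (r from 0.313 to 0.430 across genes). Because of this, each test is given also with the number as a block where that matters. For different numbers r was −0.274 to −0.140. Deviations within a group of 3 sum to 0, so these negative values follow from the positive ones and are no separate evidence. As a check of the cell type, NKX2-1, a factor of thyroid and lung, stood at a mean of 18.5 FPKM in siCtrl, whereas TG, SLC5A5 and FOXE1, markers of differentiated follicular cells, were each under 0.02 FPKM and the thyroid factor PAX8 stood at 0.575 FPKM. Ranges of other cell types' markers overlapped between the groups. The summed FPKM of 6 fibroblast markers was 0.520 to 4.94 in siCtrl and 0.916 to 6.32 in siNUF2, and of 4 endothelial markers 1.06 to 2.41 and 0.686 to 3.33. The sum of 4 leukocyte markers was 5.72 to 9.51 and 5.85 to 7.82, mostly CD68 and CD14, while PTPRC ran from 0 to 389 counts with its highest in siCtrl 1. Fibroblast collagen COL1A2 was at 0 counts in both libraries numbered 1 and reached 928 counts in another library. The part of such other-cell transcripts in the values below was not tested.

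In control 8505C cells the mesenchymal structure genes were the highest of the 10, the transcription factors lay below them and the epithelial surface genes were lowest. VIM was the highest at 499 ± 27.8 FPKM (SD, n = 3), place 48 of all genes in the table. FN1 followed at 26.9 ± 4.56 FPKM and CDH2 at 9.38 ± 0.854 FPKM, and these 3 did not overlap one another. The 5 transcription factors lay close together below them, TWIST1 at 4.66 ± 1.41, ZEB1 at 3.51 ± 0.246, SNAI2 at 2.64 ± 1.17, SNAI1 at 2.20 ± 0.378 and ZEB2 at 1.63 ± 0.303 FPKM. Each factor overlapped its neighbour in this order, so the order of neighbours was not resolved by 3 libraries. In FPKM, every TWIST1 and ZEB1 library lay above every SNAI1 and ZEB2 library. The lowest factor by FPKM, ZEB2, was still 15.5 times EPCAM, which had 0.105 ± 0.0343 FPKM, and CDH1 had no count in any siCtrl library. CDH2 exceeded CDH1 in every library, and CDH2 was 35.9 to 121 times EPCAM in FPKM over the 6 libraries. FPKM is scaled by a length for each gene, and the lengths used were not checked, so levels set side by side between genes depend on them. In counts, ZEB2 was instead the highest of the 5 factors in every siCtrl library. It had 3523, 4039 and 2542 counts, against 2312, 2651 and 2210 for ZEB1. In siCtrl counts too, the mesenchymal genes lay above the factors and the epithelial genes below them.

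**Figure D2:**
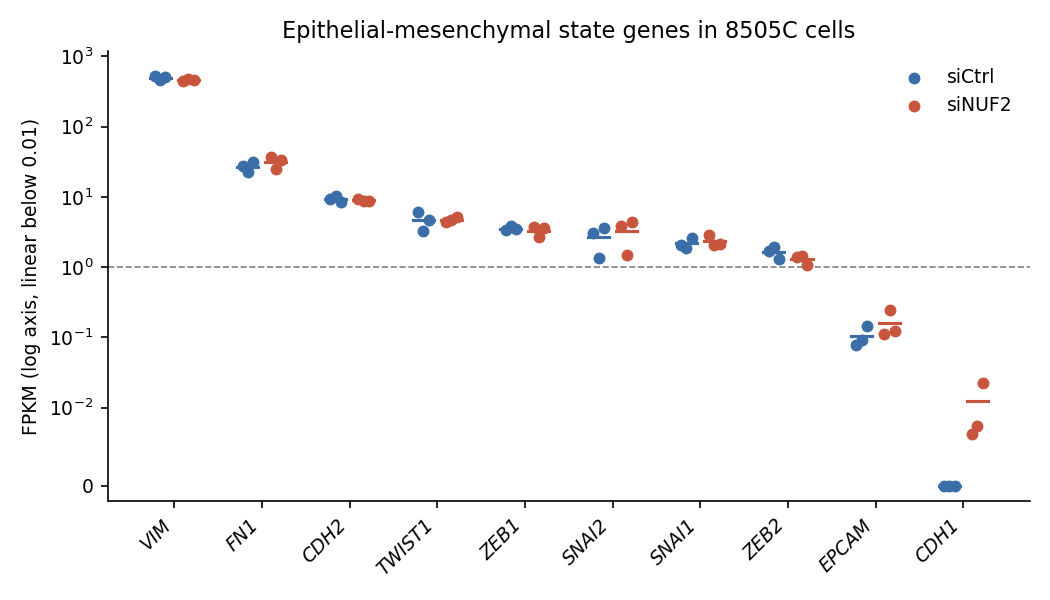
FPKM of the 10 genes in each library on a log axis that is linear below 0.01. Points are the 3 siCtrl (blue) and 3 siNUF2 (red) libraries, short lines are group means, and the dashed line marks 1 FPKM, the filter for testing. VIM sits between 452 and 521 FPKM, the 5 transcription factors sit between 1.06 and 6.06 FPKM, and EPCAM and CDH1 sit below the line.

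The comparison of siNUF2 with siCtrl asked whether any of these genes moved when NUF2 was depleted. With a filter at a mean of 1 FPKM, 8 of the 10 genes were tested, and CDH1 and EPCAM were too low. None of the 8 was called by edgeR's quasi-likelihood test at an adjusted p under 0.05, where 3.99% of the 11725 genes tested were called, 179 higher and 289 lower. None reached an unadjusted p under 0.05 either, which 18.2% of all genes did, and DESeq2 and limma also called 0 of the 8 while calling 972 and 361 genes in all. The fold changes of the 8 genes ran from −0.32 to 0.31 on the log2 scale, 4 above 0 and 4 below, with a median of −0.0084 beside 0.0069 for all genes. Their median size without sign was 0.107, beside 0.170 for all genes. For 7 of the 8, the 95% interval of the change lay within 2-fold in either direction, and for SNAI2 it did not. In no tested gene were the FPKM ranges of the 2 groups separate, which was so for 23.9% of all genes tested. In bulk RNA, fewer cells expressing a gene and less RNA per cell cannot be told apart.

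**Figure D3:**
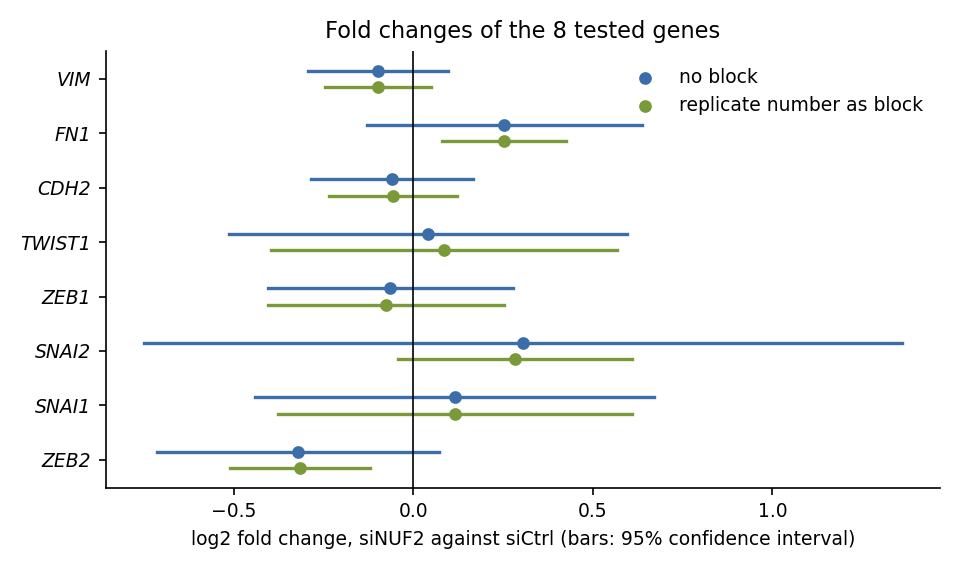
Log2 fold change of siNUF2 against siCtrl for the 8 tested genes, with 95% confidence intervals, from edgeR without (blue) and with (green) the replicate number as a block. Without the block every interval crosses 0. With it, the intervals of ZEB2 and FN1 lie to one side of 0, and that of SNAI2 shrinks most.

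Among the transcription factors, ZEB2 came nearest to a difference. ZEB2 (ENSG00000169554, chr2:144364364-144520400, minus strand), a zinc finger repressor of CDH1, stood at 1.67, 1.91 and 1.31 FPKM in siCtrl 1, 2 and 3 and at 1.37, 1.42 and 1.06 FPKM in siNUF2 1, 2 and 3. The siNUF2 library was lower than the siCtrl library of the same number in all 3 cases, yet the groups overlapped because siCtrl 3 lay below siNUF2 1 and 2. This gave a log2 fold change of −0.32 (SE 0.17, 95% interval −0.71 to 0.07, edgeR adjusted p = 0.384). With the replicate block it was again −0.32, with an SE of 0.084 and an edgeR adjusted p of 0.0461, so ZEB2 fell in that test. It was the 1 gene of the 8 called with the block (12.5%), where 14.5% of all genes tested were called, so the share among the 8 was near the background. Without the block, the fold change was −0.19 without siCtrl 2 and −0.20 without siNUF2 3. The differences within numbers were −0.28, −0.39 and −0.28 in log2 CPM, where CPM is the count scaled by library size.

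ZEB1 (ENSG00000148516, chr10:31318495-31529813, plus strand), the other member of its family, did not share that pattern. It stood at 3.32, 3.79 and 3.43 FPKM in siCtrl and at 3.73, 2.66 and 3.56 FPKM in siNUF2. The siNUF2 group held both the lowest library and the second highest, and the ranges overlapped. Its log2 fold change was −0.064 (SE 0.15, 95% interval −0.41 to 0.28, edgeR adjusted p = 0.871), and without siNUF2 2 it was 0.068. The ratio of ZEB1 to ZEB2 in FPKM ranged from 1.87 to 3.35 over the 6 libraries, and it depends on the length used for each gene. ZEB1-AS1, which overlaps ZEB1 on the opposite strand, had 296 to 375 counts, 14.5% of those of ZEB1, and the strand setting of the counting is not given in the sources used here, so reads of the pair cannot be told apart.

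SNAI2 (ENSG00000019549, chr8:48917598-48921440, minus strand), which encodes the repressor Slug, varied most between replicates. It stood at 3.05, 1.33 and 3.56 FPKM in siCtrl and at 3.86, 1.47 and 4.36 FPKM in siNUF2. Both libraries numbered 2 were low, and the mean of numbers 1 and 3 was 2.48 times number 2 in siCtrl and 2.79 times in siNUF2, a larger gap than that between the siRNAs. Within each number the siNUF2 library was the higher, by 0.35, 0.19 and 0.31 in log2 CPM. The log2 fold change was 0.31 (SE 0.46, 95% interval −0.75 to 1.36, edgeR adjusted p = 0.794), and with the block it was 0.28 (SE 0.14, edgeR adjusted p = 0.222). In the fit without the block it was −0.016 without siCtrl 2, which leaves siNUF2 2 with no library of its number.

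SNAI1 (ENSG00000124216, chr20:49982980-49988886, plus strand), which encodes Snail, another repressor of E-cadherin, stood at 2.09, 1.89 and 2.62 FPKM in siCtrl and at 2.83, 2.06 and 2.16 FPKM in siNUF2. The groups overlapped and the 3 numbers did not move the same way. Its log2 fold change was 0.12 (SE 0.24, 95% interval −0.44 to 0.67, edgeR adjusted p = 0.859), and −0.031 without siNUF2 1.

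TWIST1 (ENSG00000122691, chr7:19020991-19117118, minus strand), the bHLH factor of the set, stood at 6.06, 3.23 and 4.69 FPKM in siCtrl and at 4.43, 4.64 and 5.11 FPKM in siNUF2. The siCtrl libraries held both the highest and the lowest value, and the siNUF2 libraries lay between them. Between the groups the log2 fold change was 0.042 (SE 0.24, 95% interval −0.51 to 0.60, edgeR adjusted p = 0.952). It turned to −0.16 without siCtrl 2 and to −0.018 without siNUF2 3.

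The epithelial surface genes were near the limit of detection in both groups. CDH1 (ENSG00000039068, chr16:68737292-68835537, plus strand), the E-cadherin gene, had 0 counts in each siCtrl library and 4, 4 and 10 counts in siNUF2 1, 2 and 3. Over the groups these were 0 of 202731547 counts (exact Poisson 95% interval 0 to 0.0182 CPM) and 18 of 197473859 counts, or 0.0912 CPM (0.0540 to 0.144). Both intervals hold counting error only and leave out the variation between libraries. Set against a floor of 3 counts over the siCtrl group, 0.0148 CPM, the siNUF2 value was 6.16-fold and the lower end of its interval 3.65-fold. The groups did not overlap. That was so for 23.9% of all genes tested, but CDH1 is below the filter, and no share was computed for genes there. An exact permutation test, two-sided, gave p = 0.1, the smallest that 3 against 3 libraries can give. In edgeR without the filter the log2 fold change was 5.68 (95% interval 1.17 to 10.2). Its edgeR p was 0.0217 before adjustment and 0.445 after. All 3 siNUF2 libraries stayed at or below 0.0227 FPKM, far under every transcription factor of the set.

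EPCAM (ENSG00000119888, chr2:47345158-47387601, plus strand), which encodes an epithelial adhesion molecule, had 16, 20 and 26 counts in siCtrl and 22, 48 and 22 counts in siNUF2. These are 0.0781, 0.0931 and 0.144 FPKM and 0.113, 0.243 and 0.125 FPKM. The groups overlapped, and siNUF2 2 alone stood above the highest siCtrl library. The log2 fold change without the filter was 0.60 (edgeR adjusted p = 0.686).

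Among the mesenchymal genes, VIM (ENSG00000026025, chr10:17228241-17237593, plus strand), the intermediate filament protein vimentin, was the most precisely measured. It stood at 521, 468 and 508 FPKM in siCtrl and at 452, 472 and 455 FPKM in siNUF2. The siNUF2 libraries lay close together at the lower end, and siCtrl 2 fell among them. Its log2 fold change was −0.098 (SE 0.085, 95% interval −0.29 to 0.10, edgeR adjusted p = 0.622).

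CDH2 (ENSG00000170558, chr18:27932879-28177946, minus strand), which encodes N-cadherin, stood at 9.41, 10.2 and 8.51 FPKM in siCtrl and at 9.26, 8.74 and 8.63 FPKM in siNUF2. All 3 siNUF2 libraries lay inside the range of siCtrl. Its log2 fold change was −0.059 (SE 0.098, 95% interval −0.28 to 0.17, edgeR adjusted p = 0.817).

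FN1 (ENSG00000115414, chr2:215360440-215436073, minus strand), the matrix protein fibronectin, stood at 27.2, 22.2 and 31.3 FPKM in siCtrl and at 36.5, 25.2 and 33.5 FPKM in siNUF2. Number 2 was the lowest library of each group, and the siNUF2 library was the higher within each number, by 0.43, 0.22 and 0.11 in log2 CPM. Between the groups it differed by a log2 fold change of 0.25 (SE 0.17, 95% interval −0.13 to 0.64, edgeR adjusted p = 0.489). With the block it was 0.25 (SE 0.074, edgeR adjusted p = 0.0617), which missed the threshold. In the fit without the block, leaving out siCtrl 2 gave 0.13, siNUF2 1 gave 0.15 and siNUF2 2 gave 0.39. ZEB2, SNAI2 and FN1 were the 3 of 8 genes (37.5%) with the same sign in all 3 numbers, where 51.8% of all genes tested had one.

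**Figure D4:**
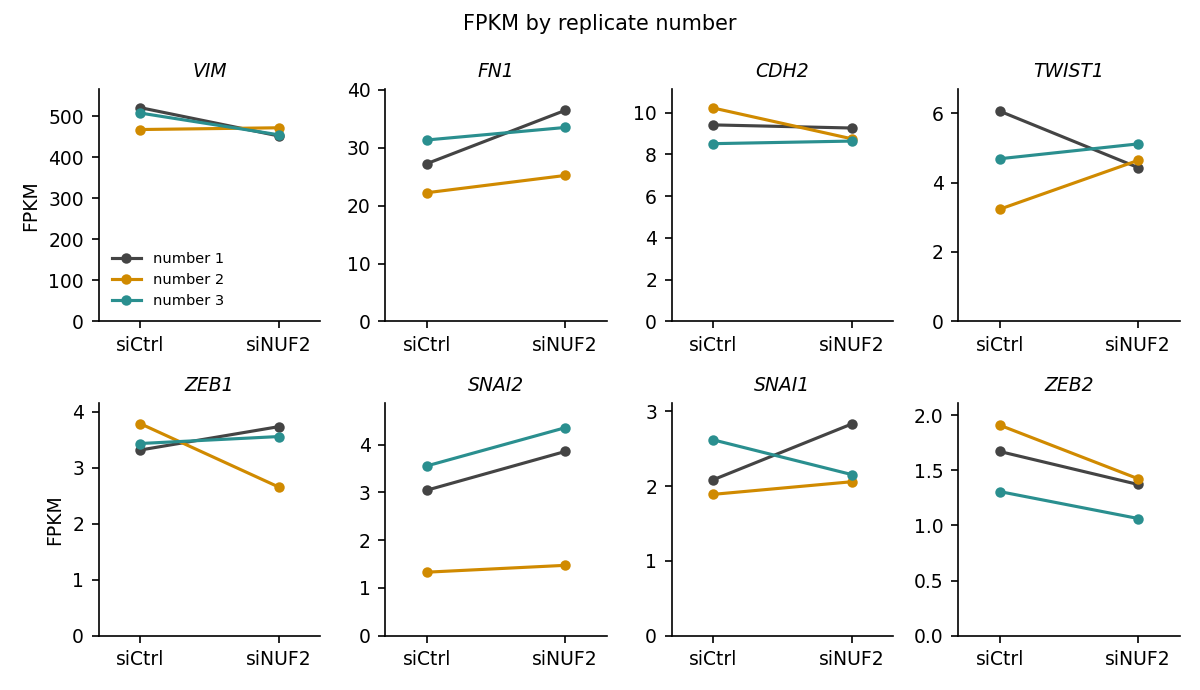
FPKM of the 8 tested genes in siCtrl and siNUF2, with lines joining libraries of the same replicate number and each axis starting at 0. ZEB2 is lower and SNAI2 and FN1 are higher in siNUF2 on all 3 lines, SNAI2 and FN1 are lowest in number 2, and the lines of the other 5 genes cross or run in different directions.

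The correlations among the 8 genes ran in both directions, and whether these genes form 1 programme was not tested. Over the 6 libraries, Pearson's r of log2 CPM was 0.91 between SNAI2 and FN1 and 0.84 both between ZEB2 and CDH2 and between SNAI1 and FN1, and −0.81 between ZEB2 and FN1, whereas that between ZEB1 and ZEB2 was −0.0014. These are descriptions over 6 points that share 2 groups and 3 replicate numbers. By the same measure over all tested genes, the closest to SNAI2 were ACSL5 (0.995) and PLAUR (0.994), to ZEB2 TMCC3 (0.998) and NKTR (0.996), and to FN1 BRMS1 (0.995) and GDAP1 (0.992). The closest to VIM were PGPEP1 (0.996) and TWF2 (0.990), to CDH2 HMGCS1 (0.980) and MED18 (0.974), and to ZEB1 SPTY2D1 (0.985) and TMEM183B (0.982). For SNAI1 they were TATDN2 (0.975) and PTRHD1 (0.974), and for TWIST1 TRIM65 (0.988) and TTC14 (0.988). Each was picked as 1 of the 2 highest r values among the 11725 genes tested. With 6 points such a pick is high by selection, and a link between the genes of a pair was not tested.

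The wider pathway was read from 5 lists that hold the 10 genes and their partners. Of the EMT transcription factors, 10 of 16 were tested and 0 were called by edgeR without the block (1 at an unadjusted p under 0.05), by DESeq2 or by limma. With the block 2 of the 10 were called, where 14.5% of all genes were. TCF3, an E-protein partner of TWIST1, rose from 8.44 ± 1.46 to 11.1 ± 0.704 FPKM (log2 fold change 0.43, edgeR adjusted p = 0.0158), and ZEB2 fell as given above. The median log2 fold change of the 10 was −0.0037.

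Of 36 epithelial adhesion and identity genes, 19 were tested and 1 was called, where 3.99% of all genes were. CLDN1, a claudin of tight junctions, rose from 17.9 ± 1.96 to 29.9 ± 5.51 FPKM (log2 fold change 0.76, SE 0.15, edgeR adjusted p = 0.0338). The call was lost when any 1 of 5 libraries was left out (adjusted p 0.0698 to 0.120) and held without siNUF2 3, and it was lost with limma (0.0624) and without the filter (0.0978). Of the 13 alternatives it held in 5, which include the block (edgeR adjusted p = 0.00261) and DESeq2 (DESeq2 adjusted p = 1.1e-04). The median of the 19 was 0.047, and 0.0066 with limma. Some genes below the filter, named after their values were seen, had lower values in every siNUF2 library than in any siCtrl library. They were the claudins CLDN3 (1.01 FPKM in siCtrl and 0.521 in siNUF2 on average) and CLDN4 (0.387 and 0.192) and the desmosomal cadherin DSC2 (1.03 and 0.609). These 3 were not in the main test, and their results in the fit without the filter are not given here. In the other direction, CLDN1, PKP2 (2.25 and 2.69, not called) and CDH1 had higher values in every siNUF2 library. FPKM ranges were separate for 23.9% of all genes tested, and no such share was computed for genes below the filter. Keratins named after their values were seen as the 3 highest of the list, KRT7 at 466, KRT18 at 159 and KRT8 at 89.4 FPKM in siCtrl, were abundant transcripts beside VIM in these cells, and none of the 3 was called.

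Of 32 mesenchymal cytoskeleton, adhesion and matrix genes, 26 were tested, and 2 rose and 1 fell, where 3.99% of all genes were called. The rising pair encodes the chains of basement membrane collagen IV. COL4A1 went from 3.02 ± 0.482 to 5.06 ± 0.304 FPKM (log2 fold change 0.76, edgeR adjusted p = 0.0191) and COL4A2 from 6.23 ± 0.406 to 8.14 ± 0.228 FPKM (0.41, edgeR adjusted p = 0.0491). THBS1, the matrix glycoprotein thrombospondin 1, fell from 59.0 ± 5.21 to 33.9 ± 1.48 FPKM (log2 fold change −0.78, edgeR adjusted p = 0.00693). The THBS1 call held when each library was left out in turn. The COL4A1 call was lost without siCtrl 1 or 2 or siNUF2 1 or 3 (adjusted p 0.0569 to 0.0837), and without the filter (0.0614). It held in 7 of 12 alternatives. The COL4A2 call was lost whichever library was left out (0.105 to 0.177), and of the 13 alternatives it held in 2, DESeq2 and the block. With the block, under which 14.5% of all genes were called, 4 more fell, namely the hyaluronan receptor CD44 (log2 fold change −0.78, edgeR adjusted p = 9.0e-04), the collagen crosslinking enzymes LOX (−0.61, 0.0122) and PLOD2 (−0.61, 0.00344), and the secreted glycoprotein FSTL1 (−0.39, 0.0265). DESeq2 called CD44, LOX and PLOD2 also without the block (DESeq2 adjusted p = 3.1e-04, 0.00475 and 0.00603). The median of the 26 was −0.054.

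TGF-beta signalling induces EMT factors in many epithelia. Of 22 genes, 19 were tested and 0 were called by edgeR without the block (3 at an unadjusted p under 0.05), by DESeq2 or by limma. With it, 2 of the 19 were called, where 14.5% of all genes were. The receptor TGFBR2 fell from 38.3 ± 4.01 to 31.0 ± 3.42 FPKM (log2 fold change −0.29, edgeR adjusted p = 0.0242), and the signal transducer SMAD4 from 3.53 ± 0.156 to 2.80 ± 0.196 FPKM (−0.32, 0.0479). The median of the 19 was 0.024.

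Corepressors and stability regulators of the EMT factors held the steepest fall among the tested genes of the 5 lists. All 13 were tested, 1 rose and 1 fell, where 3.99% of all genes were called. RCOR1, the CoREST scaffold that carries the histone demethylase recruited by Snail, fell from 11.8 ± 0.650 to 5.29 ± 0.483 FPKM (log2 fold change −1.13, SE 0.11, edgeR adjusted p = 0.00255), and the call held when each library was left out. HDAC1, a histone deacetylase of the same complex, rose from 26.2 ± 0.559 to 38.7 ± 2.88 FPKM (0.59, edgeR adjusted p = 0.0163), a call lost without siCtrl 1, 2 or 3 or siNUF2 1 (adjusted p 0.0522 to 0.0716). Of 13 alternatives the HDAC1 call held in 9, which include the block (edgeR adjusted p = 0.00312) and DESeq2 (DESeq2 adjusted p = 1.5e-05). With the block (14.5% of all genes called), the deacetylase HDAC2 (−0.24, edgeR adjusted p = 0.0469), the deubiquitinase USP9X (−0.27, 0.0435) and the F-box protein FBXO11 (−0.36, 0.0461) fell as well. The median of the 13 was −0.19.

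**Figure D5:**
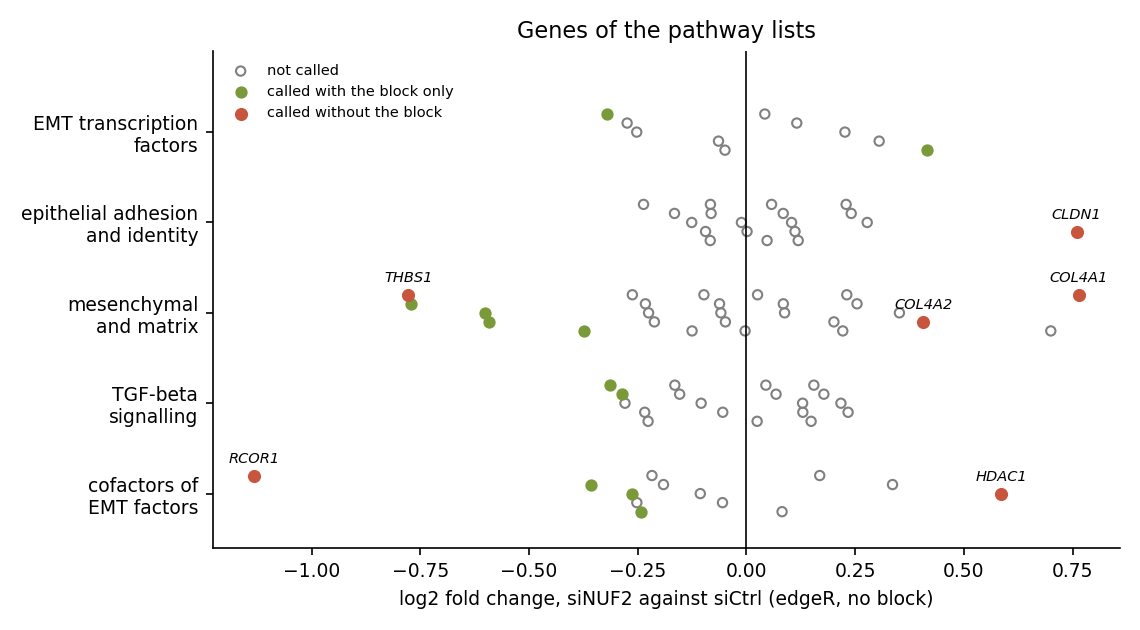
Log2 fold change of siNUF2 against siCtrl for each tested gene of the 5 lists, from edgeR without the block. Filled red points are called without the block, green points with the block only, and open points in neither, and the named red points run from RCOR1 at −1.13 to COL4A1 at 0.76.

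The guide strand of the NUF2 siRNA can pair by its own seed with other transcripts, and the word that pairs with its bases 2 to 8 is TATGGAA. None of the 10 genes held TATGGAA in the longest 3′ UTR, where 16.1% of the 10174 genes did. The share rose with length. Among genes with a 3′ UTR of similar length it was 2.16% for VIM (322 bases), 22.1% for ZEB1 (2549 bases) and 37.8% for ZEB2 (5370 bases). Among the list genes called with or without the block, 4 of 12 that were lower (CD44, THBS1, LOX and TGFBR2) and 1 of 5 that were higher (COL4A2) held it, and RCOR1 did not. The 3′ UTRs of these 4 lower genes ran from 2543 to 4097 bases, and their share was not set against genes of similar length. A match is a description and not a site of action.

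The E-box words CACCTG and CAGGTG, each the reverse complement of the other and the type bound by the ZEB and SNAI factors, were looked for on both strands of the RefSeq promoters (GRCh38.p14), 250 bases before to 50 after each start. The table held 12 promoter windows for 5 of the genes, ZEB1, ZEB2, VIM, CDH2 and FN1. Of these, 2 windows, both of ZEB1, held an E-box word, where 20.6% of 35116 promoters held one.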

How the data were processed

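RNA-seq was done on 6 libraries of 8505C cells, 3 siCtrl and 3 siNUF2. The authors trimmed reads with fastp, mapped them to GRCh38 with HISAT2 and assembled and quantified them with StringTie, per the methods and the submitters' processing notes; versions, strand setting and the counting tool are not given in the sources used here. The deposited table holds a raw read count and an FPKM per gene and library, and all 12 such columns were used. Counts were tested with edgeR 4.0.16 (quasi-likelihood, TMM, R 4.3.3) on the 11725 genes whose FPKM averaged 1 or more, and p-values were adjusted by Benjamini-Hochberg over all of them at 0.05. The fit was run on simulated counts with no replicate effect and with changes larger than those of ZEB2 or SNAI2. That run does not bear on changes as small as theirs or on the effect of the replicate number.

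Alternatives were DESeq2 1.42.0, its size factors, limma 3.58.1 on log2(FPKM + 1) or log2(FPKM + 0.1), no filter, a filter at 5, the replicate block and leaving out each library. The labels do not say what a replicate number shares or that cultures were separate, so p-values measure the spread between these libraries. The numbers were taken to pair the libraries because every same-number correlation was over 0.1. The named genes were the 10 genes, NUF2, list genes called with or without the block, and the 2 closest genes to each by Pearson's r. The genes and lists were chosen with earlier results of these data known, so that choice was not blind to the values. Words were counted in the longest 3′ UTR per gene of GENCODE release 44 of at least 50 bases. The libraries held 61257859 to 69755291 counts in total, and the counting error of a gene depends on its own count.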

Additional observations from a re-analysis of the deposited data

How the results depend on the processing

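Of 99 values of the 8 tested genes under the alternatives, 92 kept their direction and their side of the threshold, 6 changed sign while past no threshold, and 1, ZEB2 with the replicate block, passed it. Leaving out 1 library, log2 fold changes ran from −0.15 to 0.068 for ZEB1 (above 0 without siNUF2 2), −0.031 to 0.26 for SNAI1 (below 0 without siNUF2 1), −0.016 to 0.65 for SNAI2 (below 0 without siCtrl 2), −0.16 to 0.28 for TWIST1 (−0.16 without siCtrl 2, −0.018 without siNUF2 3), −0.12 to 0.0054 for CDH2 (above 0 without siCtrl 2), −0.45 to −0.19 for ZEB2 (nearest 0 without siCtrl 2) and 0.13 to 0.39 for FN1 (lowest without siCtrl 2). The cause was not tested. With the replicate block, 1705 genes were called in all, 1 of the 8 genes and 17 list genes, against 468, 0 and 6 without it. ZEB2 is the 1 of the 8 and is also among the 17, because the lists hold the 8 genes too. DESeq2 called 972 genes, and the fit without a filter called 188 genes and 3 list genes. Leaving out 1 library gave 124 to 251 genes, 0 of the 8 genes and 2 to 6 list genes, with fewer libraries in the fit. The same 8 genes stood at 1 FPKM or more in siCtrl under all 5 alternatives for levels. With 3 libraries a group, a change in SNAI2 of up to 1.36 in log2 lay within its 95% interval, and CDH1 and EPCAM were limited by counts of 0 to 48.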
